A study of Mus musculus with 4 samples.

Results

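The 9 genes described here code for enzymes, or subunits of enzymes, of the TCA cycle: Cs, Idh3a, Idh3b, Idh3g, Ogdh, Dlst, Dld, Suclg2 and Sdhd. They were taken from the microarray as the 12 probes that carry one of these gene names, of 39429 probes with 31093 names for mouse transcripts. Ogdh had 3 probes, Dld had 2 probes and each other gene had 1, and all 12 probes were well above background on all 4 arrays. All 9 names matched a gene symbol in the RefSeq table of GRCm38.p6. The cells were IMS32, a single line of spontaneously immortalized Schwann cells from the adult mouse. All cultures were kept for 1 h in DMEM with 5% FBS, and they differed only in glucose and pyruvate. [Glc 5 mM/Pyr (+)] had 5 mM glucose with 1 mM pyruvate, [Glc 5 mM/Pyr (−)] had 5 mM glucose and 0 mM pyruvate, [Glc 15 mM/Pyr (+)] had 15 mM glucose with 1 mM pyruvate, and [Glc 15 mM/Pyr (−)] had 15 mM glucose and 0 mM pyruvate. Total RNA of each condition was hybridised to 1 one-colour array, so that there were no replicates against which a difference could be checked.

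In the mitochondrial matrix, the TCA cycle oxidises the acetyl group of acetyl-CoA to carbon dioxide and passes the electrons to NADH and to the quinone pool of the respiratory chain. Citrate synthase opens the cycle, the isocitrate and oxoglutarate dehydrogenases carry out its oxidative decarboxylations, succinyl-CoA ligase makes a nucleoside triphosphate, and succinate dehydrogenase sits in the inner membrane as complex II of the respiratory chain. Pyruvate, from glycolysis or from the medium, supplies acetyl-CoA through the pyruvate dehydrogenase complex, which shares its dihydrolipoamide dehydrogenase subunit, the product of Dld, with the oxoglutarate dehydrogenase complex.

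Levels are given as the log2 of the spot intensity minus the log2 of the 75th percentile of the same array, so that 0 is the 75th percentile, and they are comparable between arrays for 1 probe but not between probes. The 75th percentile was between 1597 and 1788 intensity units, and 28470 to 30344 of the 39429 probes were well above background. No spot was saturated, and member intensities ranged from 987 to 104665. Probes printed 10 times gave a median SD between spots of 0.060 on the log2 scale at such intensities. A difference between 2 arrays then has an SD of 0.085 from spot error, and 1.96 times this (the 95% range under normal error), 0.17 or 1.12-fold, is called the repeated-spot limit below. It covers error within an array and not that of culture, labelling or array. The limit is that of 1 probe at the intensities of the members. For a gene averaged over 2 or 3 probes, as Dld and Ogdh are, spot error alone would give a narrower limit. For probes dimmer than the members it would give a wider one, since the median SD over all repeated probes was 0.084 to 0.088. All 13 Schwann cell markers examined were above background on the 4 arrays, and 8 lay above the 75th percentile on each, with Erbb3 and Gfap among the dim ones. Of the other marker lists, 5 of 6 fibroblast, 6 of 6 macrophage, 2 of 4 endothelial and 3 of 4 neuronal genes were above background on all arrays. The summed intensity of the macrophage list at 5 mM glucose was 15870 with pyruvate and 14569 without, and at 15 mM it was 10854 and 11170. Of this, a single Itgam probe gave 13155, 11907, 8530 and 7997, while the other 2 Itgam probes were below 100 and Cd68 was highest in [Glc 15 mM/Pyr (−)]. The neuronal sum was 11711, 10587, 7893 and 7638 in the same order, of which the Snap25 probe gave 9340, 8354, 6059 and 5470. The endothelial sum lay between 4242 and 5715, with 4089 to 5496 from 1 Kdr probe, and the fibroblast sum between 2819 and 3043. The cultures were of a single cell line, so these sums are readings of marker genes and not counts of other cells. Any part of other cells in the differences below was not tested. In bulk RNA, fewer cells of a type and less RNA per cell cannot be told apart. Scaling to 8 spike-in probes in place of the 75th percentile moved the median difference of all probes from -0.017 to -0.37 for glucose with pyruvate, from 0.032 to -0.17 for glucose without pyruvate and from -0.018 to -0.21 for pyruvate at 5 mM glucose, whereas at 15 mM glucose it was -0.0079 in place of 0.028. Directions of differences that this turns are named where they are given. Orders of the 4 arrays for a probe are on the 75th percentile scale, and with spike-in scaling [Glc 5 mM/Pyr (+)] was the highest array for each member probe.

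The first question was how the 9 genes differed between 15 and 5 mM glucose when pyruvate was present. Differences were small in both directions. Sdhd, the membrane anchor subunit of succinate dehydrogenase, was highest at 0.12 on the log2 scale (-0.23 with spike-in scaling), and Dld and Suclg2 were lowest at -0.10 each. Of the 9 genes, 3 were higher (Sdhd, Cs and Idh3b) and 6 lower at 15 mM glucose, and all 9 were lower with spike-in scaling, while Cs was lower with quantile normalization and Idh3g higher with normexp background correction. Of all 28215 probes measured on both arrays, 45.8% were higher and 54.2% lower. Of the 11273 probes at least as bright as the dimmest member probe, 61.8% were higher. The median over the 9 genes was -0.019, beside -0.017 for all probes and 0.032 for the bright probes. None of the 9 passed 2-fold or 1.5-fold, which 0.968% and 3.12% of all probes and 0.00887% and 0.0887% of the bright probes did. None passed the repeated-spot limit, which 10.6% of all probes did upwards and 21.7% downwards, but all 9 passed it downwards with spike-in scaling.

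Without pyruvate, the same comparison between glucose concentrations gave larger differences. Sdhd was 1.29-fold higher in [Glc 15 mM/Pyr (−)] than at 5 mM glucose, 0.37 on the log2 scale, and the 3 subunit genes of the NAD-dependent isocitrate dehydrogenase were higher by 0.16 to 0.24, although of these only Idh3g stayed higher with spike-in scaling. Ogdh and Dlst, the first and second components of the oxoglutarate dehydrogenase complex, were lower, at -0.12 and -0.10, whereas Dld, its dihydrolipoamide dehydrogenase, was higher by 0.13 (-0.064 with spike-in scaling). Over all 9 members, only Sdhd (0.17) and Idh3g (0.040) stayed higher with that scaling, and Idh3a, Idh3b, Dld, Suclg2 and Cs turned to lower. In all, 7 of 9 genes were higher and 2 lower, 2 and 7 with spike-in scaling, and 6 and 3 with each other scaling and with normexp, beside 55.8% higher and 44.2% lower among all 28208 probes and 65.9% higher among the bright probes. The median over the 9 genes was 0.13, beside 0.032 for all probes and 0.070 for the bright probes. The repeated-spot limit of 1 probe is wide for the means of Dld and Ogdh. Sdhd, Idh3g and Idh3a passed it upwards, joined by Idh3b (0.20) with normexp, and none passed it downwards. Sdhd alone was past it in every scaling, since Idh3a was under it with 4 of them and Idh3g with quantile normalization (0.13) and spike-in scaling, and downwards Ogdh and Dlst passed it with those 2 scalings and Cs with the latter. Of all probes 25.1% did so upwards and 22.0% downwards, and of the bright probes 25.7% and 11.6%, so that 3 of 9 is close to the share of probes in general. None of the 9 passed 2-fold or 1.5-fold, which 2.4% and 7.28% of all probes did.

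**Figure D1:**
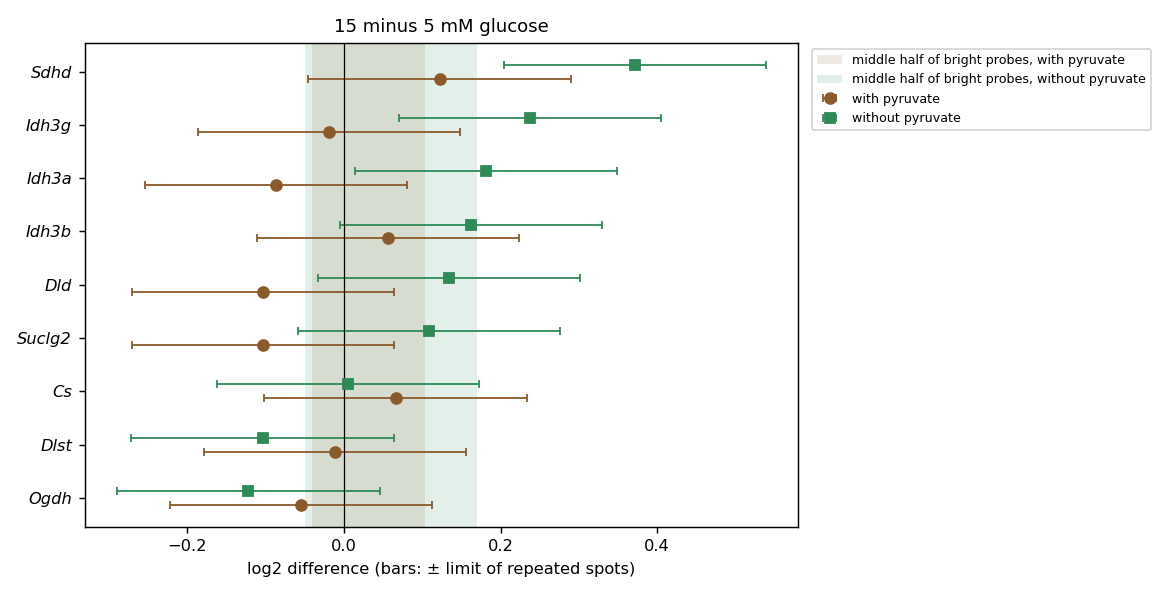
Log2 difference between 15 and 5 mM glucose for each of the 9 genes, with pyruvate (circles) and without (squares), 1 array per condition. Bars are ± the repeated-spot limit of 1 probe (0.17) and shaded bands are the interquartile range of the bright probes. Of the squares, those of Sdhd, Idh3g and Idh3a have bars clear of 0, and with spike-in scaling the square of Idh3a lies at -0.016.

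Citrate synthase, encoded by Cs, condenses acetyl-CoA with oxaloacetate. Its probe (mm9, chr10:127799428-127799487, plus strand) had log2 levels of 5.87 with pyruvate and 5.86 without it at 5 mM glucose, and of 5.94 and 5.87 at 15 mM. For the other probes the 4 levels follow in this same order. The array with high glucose and pyruvate stood slightly above the other 3, which were nearly level. Its glucose difference (15 minus 5 mM) came to 0.066 when pyruvate was present and 0.0049 when it was absent, both inside the repeated-spot limit, and they turned to -0.28 and -0.19 with spike-in scaling and to -0.030 and -0.12 with quantile normalization. The value without pyruvate was below 0 under each other scaling and with normexp too.

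Idh3a, Idh3b and Idh3g code for the catalytic alpha subunit and the beta and gamma subunits of the NAD-dependent isocitrate dehydrogenase, which oxidises isocitrate to 2-oxoglutarate. The Idh3a probe (chr9:54451368-54451427, plus strand) had levels of 3.33, 3.21, 3.24 and 3.39. The Idh3b probe (chr2:130106776-130106835, minus strand) had 2.23, 2.20, 2.29 and 2.37. The Idh3g probe (chrX:71024358-71024417, minus strand) had 4.43, 4.35, 4.41 and 4.59. For all 3 subunits the highest array was [Glc 15 mM/Pyr (−)] and the lowest was [Glc 5 mM/Pyr (−)], so that the glucose difference without pyruvate sets the extremes against each other, but not with spike-in scaling. It was 0.18 for Idh3a, 0.16 for Idh3b and 0.24 for Idh3g, which became -0.016, -0.035 and 0.040 with spike-in scaling. With pyruvate, the glucose differences were -0.087, 0.056 and -0.019, and all were negative with spike-in scaling. The 2 glucose differences of Idh3a thus had opposite signs, although the spike-in scaling gave both the same sign, and their difference of 0.27 was not tested.

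The oxoglutarate dehydrogenase complex turns 2-oxoglutarate into succinyl-CoA with 3 components: the thiamine-dependent dehydrogenase (Ogdh), the dihydrolipoamide succinyltransferase (Dlst) and the dihydrolipoamide dehydrogenase (Dld). The 3 Ogdh probes are shown by their first 30 bases, since they did not read alike. They lie on chromosome 11 at mm9 positions chr11:6256511-6256570, chr11:6256583-6256642 and chr11:6258910-6258969, all on the plus strand.
Ogdh at transcript base 4104: cttcctccctcttttgacctccactgggac
Ogdh at transcript base 4176: gaaaaaagaacaaccacctttgcattgcat
Ogdh at transcript base 6503: attaatttataaaaaagaaattggtctggc
No other probe of the array shares a run of 16 bases with any member probe. The probe at base 4176 had levels of 3.38, 3.43, 3.39 and 3.27, and the probe at base 4104 had 2.68, 2.79, 2.73 and 2.67. Both were highest in [Glc 5 mM/Pyr (−)] and lowest in [Glc 15 mM/Pyr (−)], the reverse of the order seen for the isocitrate dehydrogenase subunits. The probe at base 6503, the dimmest of the 12, had -0.47, -0.58, -0.70 and -0.66 and was highest in [Glc 5 mM/Pyr (+)]. Without pyruvate all 3 Ogdh probes were lower at 15 mM glucose, by differences of -0.13, -0.16 and -0.080 in transcript order. With pyruvate they were 0.056, 0.0055 and -0.23, so that the mean of -0.055 for the gene takes its sign from the dimmest probe and is 0.031 without it.

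The Dlst probe (chr12:86474710-86474769, plus strand) had levels of 3.22, 3.21, 3.21 and 3.10. Only [Glc 15 mM/Pyr (−)] stood apart, below the others, and the glucose difference was -0.10 without pyruvate and -0.011 with it. The Dld probe at chr12:32016889-32016948 had 2.61, 2.56, 2.53 and 2.64, and the probe at chr12:32018291-32018350 had 1.96, 1.76, 1.83 and 1.94, both on the minus strand. On both probes the arrays of [Glc 5 mM/Pyr (+)] and of [Glc 15 mM/Pyr (−)] were above the other pair, which does not hold with spike-in scaling. The mean glucose difference of Dld was -0.10 with pyruvate and 0.13 without. Both were inside the repeated-spot limit of 1 probe, which is wide for a mean of 2 probes, although the second probe alone had 0.18 without pyruvate. With spike-in scaling the means were -0.45, past the limit, and -0.064. Within the one complex, then, Ogdh and Dlst had lower levels and Dld a higher level at 15 than at 5 mM glucose without pyruvate, although Dld too was lower with spike-in scaling.

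Suclg2 codes for the GTP-forming beta subunit of succinyl-CoA ligase. Its probe (chr6:95424712-95424771, minus strand) had levels of -0.35, -0.56, -0.45 and -0.45. [Glc 5 mM/Pyr (+)] was highest, [Glc 5 mM/Pyr (−)] lowest, and the arrays at 15 mM glucose lay between them, whereas with spike-in scaling both lay below the arrays at 5 mM. The glucose difference was -0.10 with pyruvate and 0.11 without, the latter turning to -0.089 with spike-in scaling. Suclg1, the alpha subunit, had 0.055 and 0.21, and Sucla2, the ATP-forming beta subunit, had 0.014 and 0.19. With spike-in scaling the values with pyruvate were negative for both, and without pyruvate they were 0.013 for Suclg1 and -0.0033 for Sucla2.

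Sdhd codes for the small membrane subunit that, with Sdhc, anchors succinate dehydrogenase and binds ubiquinone. It had the widest range of the 12 member probes. The probe (chr9:50404630-50404689, minus strand) gave intensities of 33211, 30465, 32297 and 36961, and log2 levels of 4.22, 4.13, 4.34 and 4.50. Both arrays at 15 mM glucose stood above both arrays at 5 mM glucose, but not with spike-in scaling. The glucose difference was 0.12 with pyruvate, where it turned to -0.23 with spike-in scaling, and 0.37 without, where it ranged from 0.17 to 0.37 over the alternatives. The value without pyruvate lay above the central 95% of the bright probes, which was -0.41 to 0.33. The other subunits had smaller glucose differences without pyruvate: 0.094 for Sdha, the flavoprotein, 0.22 for Sdhb, the iron-sulfur subunit, and 0.15 for Sdhc. Of these only Sdhb (0.022) stayed positive with spike-in scaling. With pyruvate they were 0.031, 0.13 and 0.021, all negative with spike-in scaling.

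**Figure D2:**
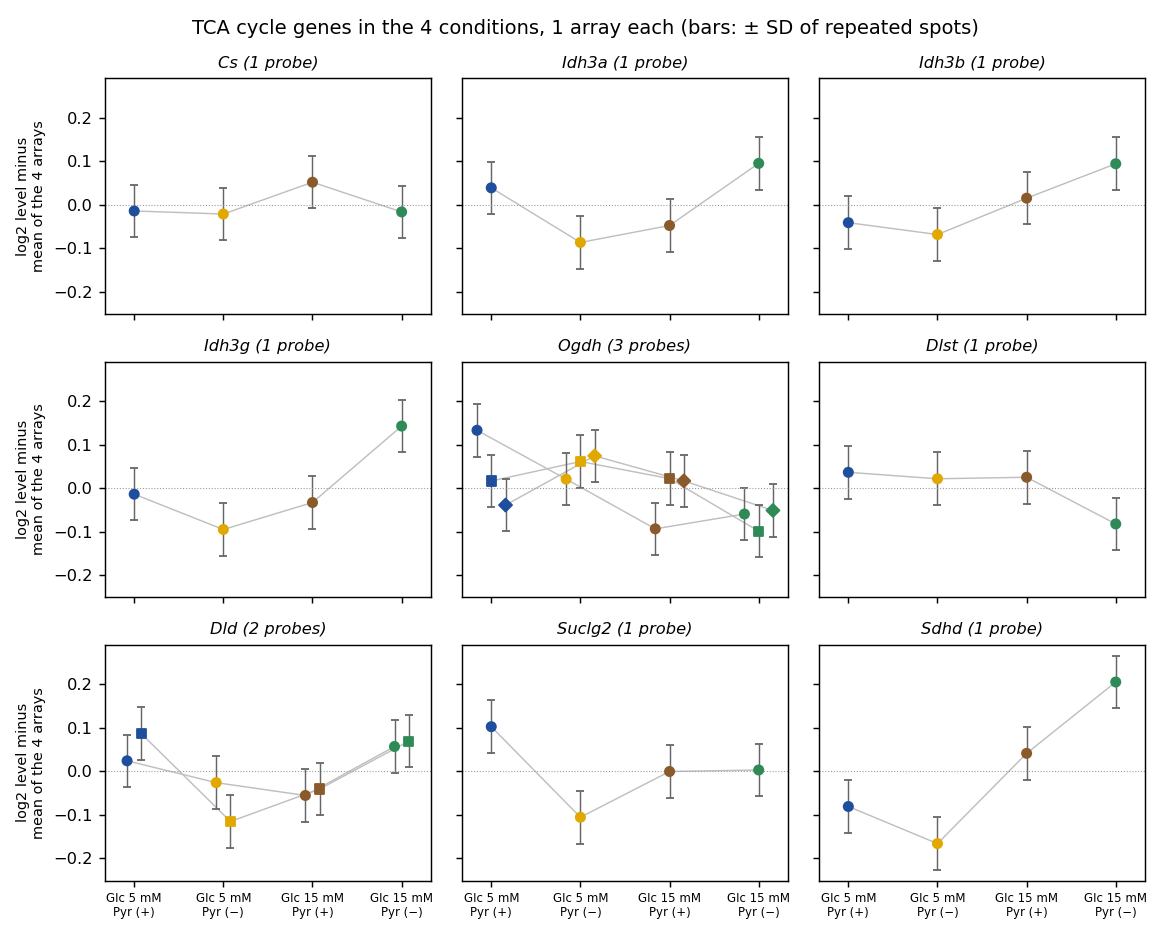
Log2 level of each member probe in the 4 conditions, centred on the mean of the 4 arrays and scaled to the 75th percentile of each array, with 1 panel per gene. Points are single arrays, bars are ± the SD between repeated spots (0.060), and symbols in a panel mark different probes of the gene. The 3 isocitrate dehydrogenase subunits and Sdhd are highest in [Glc 15 mM/Pyr (−)] and lowest in [Glc 5 mM/Pyr (−)], and Dlst and the Ogdh probes at bases 4104 and 4176 are lowest in [Glc 15 mM/Pyr (−)], while with spike-in scaling every member is highest in [Glc 5 mM/Pyr (+)].

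The windows of 250 bases before the start site are shown for Sdhd and Idh3g, which had the largest glucose differences without pyruvate, and for Dlst, which went the other way. They are RefSeq sequences of GRCm38.p6 written on the strand of the gene: chr9:50603850-50604099 on the minus strand for Sdhd, chrX:73786898-73787147 on the minus strand for Idh3g and chr12:85110583-85110832 on the plus strand for Dlst. Capitals mark matches on either strand to the motifs of NRF-1 (GCGC and GCGC with any 2 bases between them), GABP (CCGGAAG) and the GC box (GGGCGG).
Sdhd: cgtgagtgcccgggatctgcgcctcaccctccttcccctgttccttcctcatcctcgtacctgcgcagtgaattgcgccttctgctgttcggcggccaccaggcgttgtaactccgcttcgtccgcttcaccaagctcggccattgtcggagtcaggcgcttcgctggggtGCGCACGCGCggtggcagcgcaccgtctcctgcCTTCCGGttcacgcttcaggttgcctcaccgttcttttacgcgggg
Idh3g: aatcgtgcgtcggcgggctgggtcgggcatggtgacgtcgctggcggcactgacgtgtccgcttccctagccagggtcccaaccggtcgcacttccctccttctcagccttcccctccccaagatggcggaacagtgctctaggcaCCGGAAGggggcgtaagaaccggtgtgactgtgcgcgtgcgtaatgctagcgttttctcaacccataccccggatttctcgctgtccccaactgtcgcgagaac
Dlst: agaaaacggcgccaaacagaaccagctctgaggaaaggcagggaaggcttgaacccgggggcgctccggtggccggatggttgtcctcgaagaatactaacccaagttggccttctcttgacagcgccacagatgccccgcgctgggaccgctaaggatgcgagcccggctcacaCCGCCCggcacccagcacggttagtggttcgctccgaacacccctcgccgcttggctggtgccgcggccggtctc
NRF-1 and GABP are factors known for sites in promoters of respiratory chain genes. In the Sdhd window the NRF-1 match lies 79 to 70 bases and the GABP match 46 to 40 bases before the start. In the Idh3g window the GABP match lies at 104 to 98, and in the Dlst window the GC box lies at 75 to 70. Of 32851 windows of this length, 4.98% held the NRF-1 motif, 6.91% the GABP motif and 32.7% the GC box. A gene can have several windows, and Ogdh has 6. Of 27025 genes, 5.64% held the NRF-1 motif, 7.83% the GABP motif and 35.4% the GC box in at least 1 window, as did 1, 2 and 4 of the 8 members with a window (Idh3a had none). The E-box (CACGTG), in 6.86% of genes, was found among the members only in windows of Ogdh, and the half-site of the estrogen-related receptors (AAGGTCA), in 4.7%, in none. None of the matches printed above overlaps another.

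The other genes of the pathway were set beside the members as 3 lists. The first holds 8 further cycle genes (Idh2, Sucla2, Suclg1, Sdha, Sdhb, Sdhc, Fh1 and Mdh2), with a median glucose difference of 0.067 with pyruvate and 0.17 without. All 8 were higher at 15 mM glucose in each comparison, but with spike-in scaling 8 of 8 were lower with pyruvate and 6 of 8 without, with quantile normalization 4 and 1 were lower, and with normexp 1 was lower with pyruvate. None passed the repeated-spot limit with pyruvate, while all 8 did so downwards with spike-in scaling and Mdh2 did so upwards in the authors' ratio. Without pyruvate 4 passed it upwards, beside 25.1% of all probes, and 0 with quantile normalization or spike-in scaling. The largest values were 0.16 for Mdh2, the mitochondrial malate dehydrogenase, with pyruvate and 0.22 for Sdhb without, which became -0.19 and 0.022 with spike-in scaling. Idh2, the NADP-dependent mitochondrial isocitrate dehydrogenase, had 0.10 and 0.12, or -0.25 and -0.078 with spike-in scaling.

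Companions of the members, 14 genes, comprised cytosolic or related isozymes, factors that assemble succinate dehydrogenase and enzymes that attach lipoate. The entry for Lipt2 was read from a probe that carries the name 2010012O05Rik, on chromosome 19. Whether this probe measures Lipt2 was not checked, so its values (0.14 with pyruvate and 0.23 without) are not taken as those of a lipoate enzyme. It is among the 10, 12 and 8 genes counted next and the 5 higher with spike-in scaling, and it enters the medians. Of the 14 genes, 10 were higher with pyruvate and 12 without, with medians of 0.074 and 0.18. Spike-in scaling left 0 and 5 of them higher. Without pyruvate 8 passed the repeated-spot limit upwards, beside the 25.1% of all probes and 25.7% of the bright probes given above, and 1, Aco1, downwards, and with spike-in scaling Sdhaf3 was the only one of the 8 still past it. Sdhaf3, which takes part in maturing the iron-sulfur subunit of succinate dehydrogenase, had the largest difference of the list without pyruvate at 0.39 and was -0.091 with pyruvate. The 3 other succinate dehydrogenase assembly factors, named after their values were seen, had 0.28 (Sdhaf1), 0.18 (Sdhaf2) and 0.30 (Sdhaf4) without pyruvate. Mrps36, a small subunit that links the oxoglutarate dehydrogenase complex together and was also named after its value was seen, had 0.29. Its probes are placed on chromosome 17 in the array design, and whether they measure Mrps36 was not checked. Of these 5 values without pyruvate, that of Sdhaf2 alone turned negative with spike-in scaling, to -0.017. Mdh1, the cytosolic malate dehydrogenase, had the largest difference with pyruvate at 0.14, which became -0.21 with spike-in scaling, and Aco1, the cytosolic aconitase that also binds iron-responsive elements, had the lowest in both comparisons, at -0.22 and -0.19. The Aco1 probe read 107 to 145 units and the Sdhaf3 probe 445 to 562. Both were dimmer than every member probe, and the repeated-spot limit was not taken at such intensities.

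Dld also serves the pyruvate dehydrogenase, branched-chain ketoacid dehydrogenase and glycine cleavage complexes, and the other 10 genes of these went both ways. Their medians were 0.041 with pyruvate and -0.018 without, with 6 and 4 higher, or -0.31 and -0.22 with 0 and 2 higher with spike-in scaling. Gcsh was counted as lower without pyruvate at -0.14, the mean of 3 probes. On 2 of them, at 14894 units or more, the difference was 0.18 each. The remaining probe, at 21 to 42 units, had -0.78 and gives the mean its sign. The median and the count of 4 higher without pyruvate use this mean. Amt, of the glycine cleavage system, was highest with pyruvate at 0.16, and Dbt, the acyltransferase of the branched-chain complex, lowest at -0.18. Both were dim, at 78 to 84 units for Amt and 65 to 92 for Dbt, below the intensities from which the repeated-spot limit was taken. Without pyruvate, Pdhb, the beta subunit of pyruvate dehydrogenase, was highest at 0.22 and Gldc, the glycine decarboxylase, lowest at -0.37. The Gldc probe, at 261 to 388 units, was dimmer than every member probe too. With spike-in scaling Amt turned to -0.19 and Pdhb to 0.018.

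**Figure D3:**
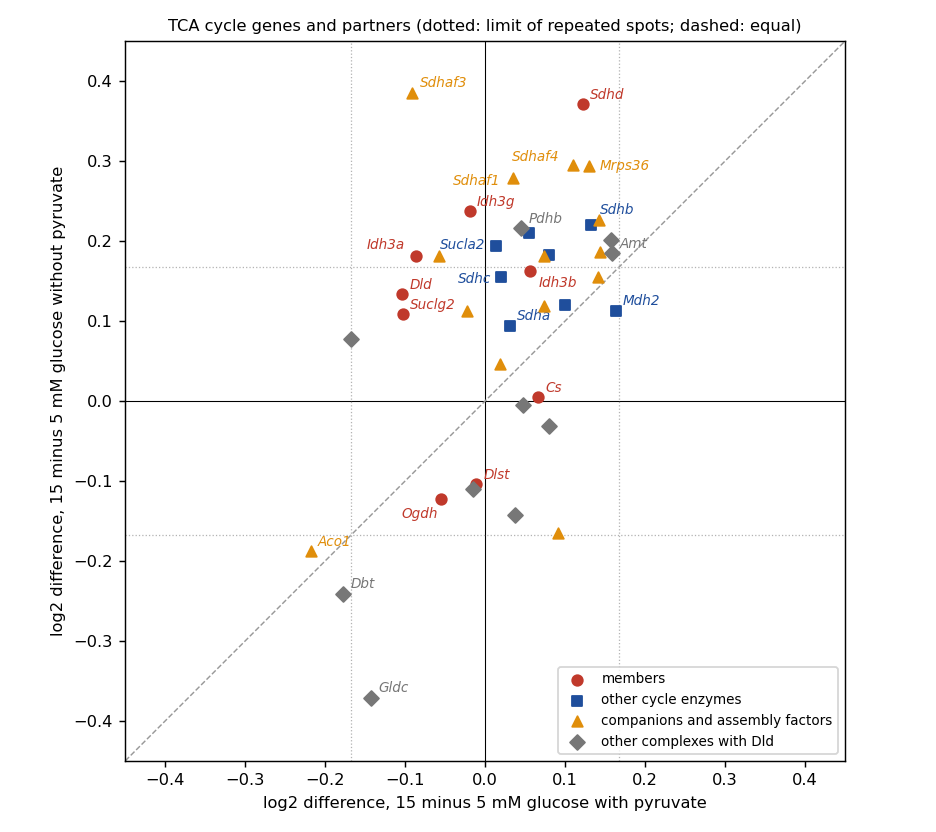
Log2 difference between 15 and 5 mM glucose with pyruvate (horizontal) and without (vertical) for the 9 members and the 3 other lists, 1 point per gene and 1 array per condition, scaled to the 75th percentile of each array. Dotted lines mark the repeated-spot limit (0.17), and Sdhd, Sdhaf3, Sdhaf4, Mrps36 and Sdhaf1 stand highest on the vertical axis, where spike-in scaling lowers every point by the same amount and leaves these 5 above 0.

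The second question was how the 9 genes differed with the removal of pyruvate at each glucose concentration. These comparisons use the same 4 arrays as those for glucose and are not independent of them. At 5 mM glucose 8 of 9 genes were lower without pyruvate, and Ogdh alone was higher by 0.015, which turned to -0.17 with spike-in scaling, and Cs, at -0.0071, was just above 0 when the 75th percentile was taken over detected probes and in the authors' ratio. At 15 mM glucose 6 were higher and 3 (Cs, Ogdh and Dlst) lower, and Suclg2, at 0.0034, turned to lower with those scalings and with spike-in scaling. Of all 29088 probes measured at 5 mM, 55.5% were lower and 44.5% higher, and of 27783 at 15 mM, 44.0% were lower and 56.0% higher.

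At 5 mM glucose the median over the 9 genes was -0.081, beside -0.018 for all probes. Suclg2 alone passed the repeated-spot limit of 1 probe, at -0.21 or 1.16-fold lower. Its probe read 1402 units with pyruvate and 1181 without, among the dimmest of the members. The limit rests on repeated probes over the whole range of member intensities, and spot error at the dim end alone was not taken. Of all probes 17.1% passed the limit downwards and 11.1% upwards, and of the bright probes 3.81% passed it downwards. The value of Suclg2 lay just below the central 95% of the bright probes, -0.19 to 0.22. With spike-in scaling all 9 members passed the limit downwards. The other members ranged down to -0.13, for Idh3a and Dld, whose 2 probes had -0.050 and -0.20. At 15 mM glucose the median was 0.079, beside 0.028 for all probes. Idh3g alone passed the limit, at 0.18, which 22.0% of all probes passed upwards and 18.9% downwards, and 14.8% and 11.7% of the bright probes. It was under the limit, at 0.14 to 0.16, with each of the 4 other scalings. Sdhd had 0.16, Idh3a 0.14, Dld 0.11 and Idh3b 0.079, and at the other end Dlst had -0.11, Cs -0.068 and Ogdh -0.052. None of the 9 genes passed 2-fold at either concentration, which 1.17% and 2.1% of all probes did, or 1.5-fold, which 3.2% and 6.54% did.

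**Figure D4:**
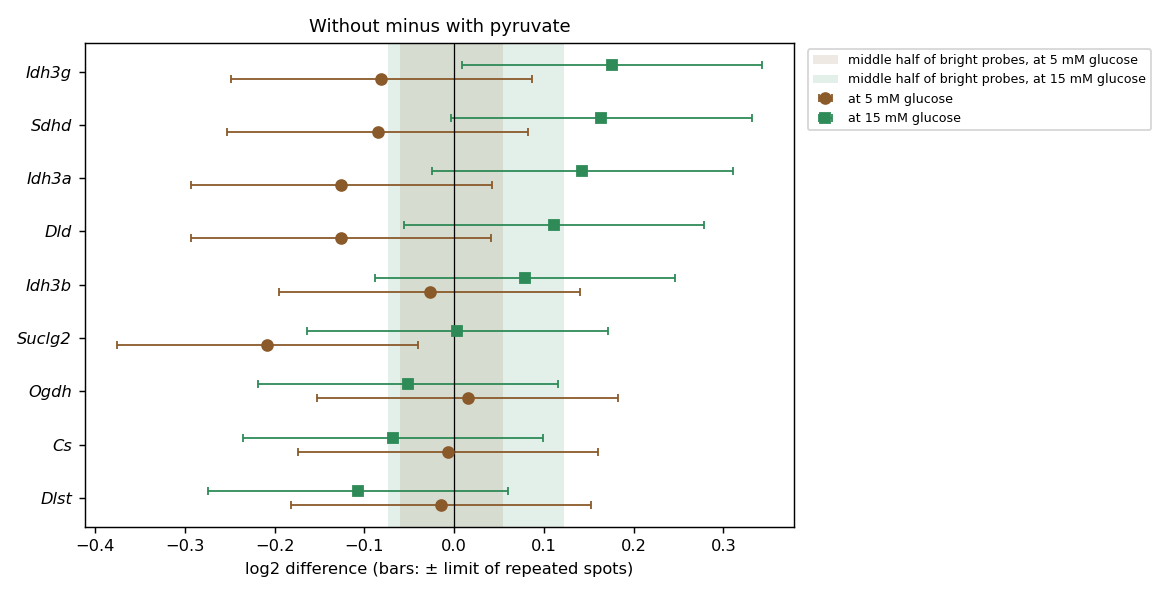
Log2 difference without minus with pyruvate for each of the 9 genes at 5 mM (circles) and 15 mM glucose (squares), 1 array per condition, scaled to the 75th percentile of each array. Bars are ± the repeated-spot limit of 1 probe (0.17), bands are the interquartile range of the bright probes, and the bars of Suclg2 at 5 mM and Idh3g at 15 mM glucose are clear of 0; with spike-in scaling the square of Suclg2 and the circle of Ogdh lie below 0.

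An additive fit of glucose and pyruvate over all 4 arrays, the only fit with a residual degree of freedom that keeps both factors, was run with limma and Benjamini-Hochberg adjustment over 31274 probes. It called 0 probes for glucose and 0 for pyruvate, and at an unadjusted p under 0.05 it had 1496 probes (4.78%) for glucose and 1077 (3.44%) for pyruvate. Of the 12 member probes, 0 were among these. Sdhd had the largest glucose effect of the members at 0.25 ± 0.12 (SE, higher at 15 mM glucose in both comparisons), with a limma p of 0.14 and an adjusted p of 0.77. Scaled to the spike-in probes, the glucose difference of Sdhd was -0.23 with pyruvate and 0.17 without, so that it was then higher only without pyruvate. With 1 residual degree of freedom the fit takes any dependence of the glucose difference on pyruvate as error, and the absence of calls does not show that the genes were alike in the 4 conditions.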

How the data were processed

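Cy3-labelled cRNA from IMS32 cells was measured on 4 one-colour Agilent arrays of 1 slide, 1 per condition, each with 44397 features. The deposited scanner tables give background-corrected spot intensity from Feature Extraction 11.5.1.1, per the submitters' processing notes, with no scaling between arrays. The authors' second table holds each intensity as a ratio to 1 value per array, and GeneSpring GX is named without its settings. Controls and spots with an outlier flag were removed, spots of 1 probe were averaged, and log2 intensities were taken relative to the 75th percentile of each array. A gene is the mean over its probes that were well above background on both arrays of a comparison. Groups came from the sample labels. Thresholds were 2-fold and 1.5-fold. With 1 array per condition the differences have no test, their precision is limited by the number of arrays, and the repeated-spot limit (95% under normal error) covers error within an array only. The additive fit used limma 3.58.1 under R 4.3.3. It was tested on simulated data whose noise followed the residual spread of single probes on these arrays, and made no calls there even for large changes. Simulations with 1 noise level for all probes were also run and are not reported here. An absence of calls is taken to carry no information. Python 3.11.15, numpy 2.4.6, pandas 2.3.3 and matplotlib 3.10.9 were used elsewhere.

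The members and the lists were chosen with earlier results of these data known, and some genes of the lists are not reported here. The genes named are the 9 members, the highest and lowest of each list in each glucose comparison, the partner subunits and isozymes Suclg1, Sucla2, Idh2, Sdha, Sdhb and Sdhc, and the 3 probes nearest to the member with the widest range. Sdhaf1, Sdhaf2, Sdhaf4, Mrps36, Gcsh and Lipt2 and the single markers were named outside this rule. Probe positions are those of the array design in mm9. No annotation of that build was used here, so whether a probe lies in a coding exon or a UTR is not given. The alternatives were 4 scalings (75th percentile over probes above background on all arrays, quantile normalization, spike-in probes, the authors' ratio), normexp with an offset of 50, dim probes kept, only the brightest probe of each gene, the 1.5-fold threshold, an intensity trend in limma and Ogdh without its dimmest probe.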

Additional observations from a re-analysis of the deposited data

Results flagged for a closer look

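For 3 members the difference between 15 and 5 mM glucose was negative with pyruvate and positive without it, each by more than the SD that spot error gives a difference. The value without pyruvate minus that with pyruvate was 0.27 on the log2 scale for Idh3a (-0.087 with, 0.18 without), 0.24 for Dld (-0.10 with, 0.13 without) and 0.21 for Suclg2 (-0.10 with, 0.11 without). The same value was 0.26 for Idh3g and 0.25 for Sdhd, which did not meet this rule of signs and size. It was 0.11 for Idh3b and negative for Cs, Ogdh and Dlst. This difference between differences was not tested, since each condition has 1 array. With spike-in scaling both glucose differences were negative for Idh3a, Dld and Suclg2.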

How the results depend on the processing

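Over 10 alternative settings, 334 values were recalculated. Of these 298 moved by less than the spot error or kept their count, and 36 moved further. The count of members past 2-fold was 0 in each setting run, and the largest member difference was -0.45, for Dld with spike-in scaling. Spike-in scaling moved the median over the members to -0.37 for glucose with pyruvate, -0.064 for glucose without and -0.27 for pyruvate at 5 mM glucose. The median of all probes moves by the same amount by construction. For glucose with pyruvate, members minus all probes was -0.0026, but -0.084 with quantile normalization and -0.079 with normexp. Of 256 member differences, 33 moved by more than the spot error: 27 with spike-in scaling, 5 with quantile normalization and 1, Ogdh with pyruvate, without its dimmest probe, an alternative chosen after seeing the data. A sign changed in 22 cases, 10 of them with spike-in scaling, and the largest main difference among the remaining cases was 0.066. The count of members past the repeated-spot limit changed with the scaling and with normexp, as given beside each comparison. The additive fit made 0 calls in its 5 alternatives too, which shows no stability, since it could not call large changes in simulated data; it had 1301 to 5079 probes at an unadjusted p under 0.05 for glucose and 1098 to 1571 for pyruvate. One member probe was among these, for glucose with the intensity trend. No paired analysis was possible because each group has 1 array, and for the same reason no replicate could be left out.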

Other observations

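Sdhd had the widest range of the member probes, and the probes outside the lists with the most similar profile over the 4 arrays, among 27499 well above background on all of them, were those of Kank3, Sft2d1 and Icam1. Their Euclidean distances from the centred log2 profile of Sdhd were 0.015, 0.015 and 0.017, and 589 probes lay within 0.1. Over 4 arrays these are descriptions of likeness only.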
